A study of Homo sapiens with 4 samples.

Results

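Histone genes were examined in Huh7, a widely used line of human liver cancer cells, sorted by flow cytometry for the surface protein CD133 into positive (CD133+) and negative (CD133-) cells. Neither population carries a labelled treatment or genetic change, and the number of cultures and sorts behind each is not given in the labels. Members were all probe sets that the platform annotation pairs with 1 gene symbol of a histone naming pattern, older or current. The pattern found 74 probe sets of 56 symbols, of 54675 probe sets and 19775 named genes on the array. Each population was measured on 1 array and summarized by 2 algorithms, RMA (log2 values) and MAS5 (linear signals), which are never replicates of each other. No difference below has a replicate check, and no test between the populations was possible.

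Histones are the proteins around which DNA is wound: the core histones H2A, H2B, H3 and H4 form the nucleosome, and the linker histone H1 binds where DNA enters and leaves it. Most histone genes lie in clusters, lack introns and are transcribed as DNA is copied, and their mRNAs normally end in a stem-loop in place of a poly(A) tail. Replacement variants such as H2AZ1 are encoded by single genes outside the clusters, give polyadenylated mRNAs and are made throughout the cell cycle. The labels name a MessageAmp II kit for amplification, a method that primes cDNA at poly(A). For the clustered genes, the amount of transcript and its share with a poly(A) tail therefore cannot be told apart. Fewer cells that express a gene and less RNA per cell cannot be told apart either.

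By older name, 49 probe sets of 43 genes belonged to the clusters HIST1, HIST2 and HIST3 and are called replication-dependent. Another 20 probe sets of 8 genes were replacement variants. The remaining 5 members were kept apart: 3 pseudogenes, the antisense transcript H1-10-AS1, whose symbol only shares the letters, and H2BC12L, an H2B copy on chromosome 21. A probe set was used when the brighter of its RMA values exceeded 4.86, the median of that quantity over the array, which ranks brightness and calls nothing detected. This left 45 probe sets of 35 members. Of the 29 below it, 19 were replication-dependent and 7 replacement variants, and their differences ranged from -0.79 to 0.39 with a median of -0.01. Plain probe sets (ending in _at or _a_at) are given apart from shared ones (_s_at or _x_at). Shared ones can take up related transcripts, a concern for genes as alike as the clustered histones. The ending alone does not make a probe set specific, since some plain sets outside the members are listed for up to 14 histone genes.

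The promoters of 5 of the 6 genes with at least 2-fold lower values in CD133+ cells are printed with that of the replacement variant H2AZ1. No promoter of a clustered gene with similar values in both populations is printed, and a link between promoter and difference was not tested. RefSeq windows of 250 bases before to 50 after the transcript start were at hand for 49 of the 51 replication-dependent and replacement genes. Capitals mark 4 motifs, searched on both strands: the TATA box (TATAAA), the CCAAT box (CCAAT), the octamer of H2B promoters (ATTTGCAT) and the H1 box (AAACACA). The H2BC4 window also holds the start of H2AC6, and the H2AC17 window that of H2BC17, since these genes start head to head.
H1-2, GRCh38.p14 chr6:26056421-26056720, strand -: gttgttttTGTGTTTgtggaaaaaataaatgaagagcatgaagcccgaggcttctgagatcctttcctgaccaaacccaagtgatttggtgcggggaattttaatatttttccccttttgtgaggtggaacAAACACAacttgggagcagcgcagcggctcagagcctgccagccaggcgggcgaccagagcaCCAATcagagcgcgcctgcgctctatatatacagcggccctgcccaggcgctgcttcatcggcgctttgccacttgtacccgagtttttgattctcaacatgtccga
H2BC4 with H2AC6, GRCh38.p14 chr6:26123877-26124176, strand -: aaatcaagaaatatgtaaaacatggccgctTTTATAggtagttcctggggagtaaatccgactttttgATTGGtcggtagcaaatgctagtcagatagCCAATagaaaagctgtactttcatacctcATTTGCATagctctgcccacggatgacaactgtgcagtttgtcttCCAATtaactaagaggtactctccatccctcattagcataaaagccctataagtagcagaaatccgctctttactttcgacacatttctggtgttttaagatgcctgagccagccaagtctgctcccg
H2AC17 with H2BC17, GRCh38.p14 chr6:27893136-27893435, strand -: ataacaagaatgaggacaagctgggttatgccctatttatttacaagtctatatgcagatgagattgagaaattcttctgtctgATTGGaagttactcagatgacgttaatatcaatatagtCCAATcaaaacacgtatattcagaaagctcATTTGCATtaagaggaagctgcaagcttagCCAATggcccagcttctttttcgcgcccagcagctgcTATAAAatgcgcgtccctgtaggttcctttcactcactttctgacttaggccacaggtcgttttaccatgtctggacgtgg
H2AC16, GRCh38.p14 chr6:27865067-27865366, strand +: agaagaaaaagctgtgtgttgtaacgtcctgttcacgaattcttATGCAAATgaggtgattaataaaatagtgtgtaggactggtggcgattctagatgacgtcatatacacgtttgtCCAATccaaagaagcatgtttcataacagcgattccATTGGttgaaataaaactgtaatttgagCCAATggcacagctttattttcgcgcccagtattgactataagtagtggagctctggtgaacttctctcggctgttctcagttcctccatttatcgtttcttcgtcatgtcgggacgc
H4C8, GRCh38.p14 chr6:26285485-26285784, strand -: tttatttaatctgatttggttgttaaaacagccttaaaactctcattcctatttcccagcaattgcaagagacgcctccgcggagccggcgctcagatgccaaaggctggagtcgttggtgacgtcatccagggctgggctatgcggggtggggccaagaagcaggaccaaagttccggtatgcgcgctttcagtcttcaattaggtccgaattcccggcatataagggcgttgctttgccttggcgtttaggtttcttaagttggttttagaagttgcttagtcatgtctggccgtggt
H2AZ1, GRCh38.p14 chr4:99950226-99950525, strand -: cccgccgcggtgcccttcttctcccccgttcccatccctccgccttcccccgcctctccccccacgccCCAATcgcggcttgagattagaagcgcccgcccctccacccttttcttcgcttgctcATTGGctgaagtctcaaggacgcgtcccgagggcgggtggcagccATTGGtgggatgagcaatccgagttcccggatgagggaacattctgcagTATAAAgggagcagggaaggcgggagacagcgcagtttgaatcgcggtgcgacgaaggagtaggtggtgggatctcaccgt

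The octamer and the H1 box differed between the protein classes. The octamer was found in the windows of 10 of 13 replication-dependent H2B and 6 of 8 H2A genes, in none of the H1, H3, H4 or replacement windows, and in 1.77% of all 35116 promoter windows. Head-to-head neighbours share bases, so these H2A and H2B windows are not independent. The H1 box was found in all 6 linker histone genes of the cluster, in no other replication-dependent gene, in 2 of 8 replacement genes and in 5.64% of all windows. A CCAAT box was found in 36 of 41 replication-dependent genes (2 of 7 H4 genes), in 7 of 8 replacement genes and in 34.6% of all windows. TATAAA was found in 28 of 41 replication-dependent genes, in 3 of 8 replacement genes and in 11.5% of all windows. The H4C8 window held none of these letters. A match is a description of the sequence and no evidence of a bound factor.

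Replication-dependent histone probe sets mostly had lower values on the CD133+ array. Of the 30 probe sets above the floor, 28 had a lower RMA value in CD133+ cells, 1 a higher value (H4C9) and 1 the same value (H1-5). At least 1.5-fold lower were 18 of the 30 (60.0%), for 16 genes, against 1.25% of all 27337 probe sets above the floor. At least 2-fold lower were 7 of the 30 (23.3%), against 0.0805% of all. None was 1.5-fold higher, as were 2.98% of all. These counts use the RMA values as given; of the 27 probe sets above the floor in both populations, 15 were at least 1.5-fold lower. The median difference, CD133+ minus CD133-, was -0.67 on the log2 scale, against -0.02 over all probe sets above the floor. As a measure of technical spread, probe sets of the same non-histone gene varied around their mean difference with an SD of 0.17 (16252 probe sets of 6035 genes), which leaves out variation between sorts, cultures and arrays.

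The 2 kinds of probe set gave similar shares. Of 18 plain probe sets 10 were at least 1.5-fold lower (median -0.64), and of 12 shared ones 8 (median -0.68). Only 22 probe sets on the whole array were at least 2-fold lower above the floor, and 7 of them (31.8%) were replication-dependent histones, although all histone members made up 0.165% of the probe sets above the floor. A further 1 of the 22 was listed for both H2BC11 and H2BC8.

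**Figure D1:**
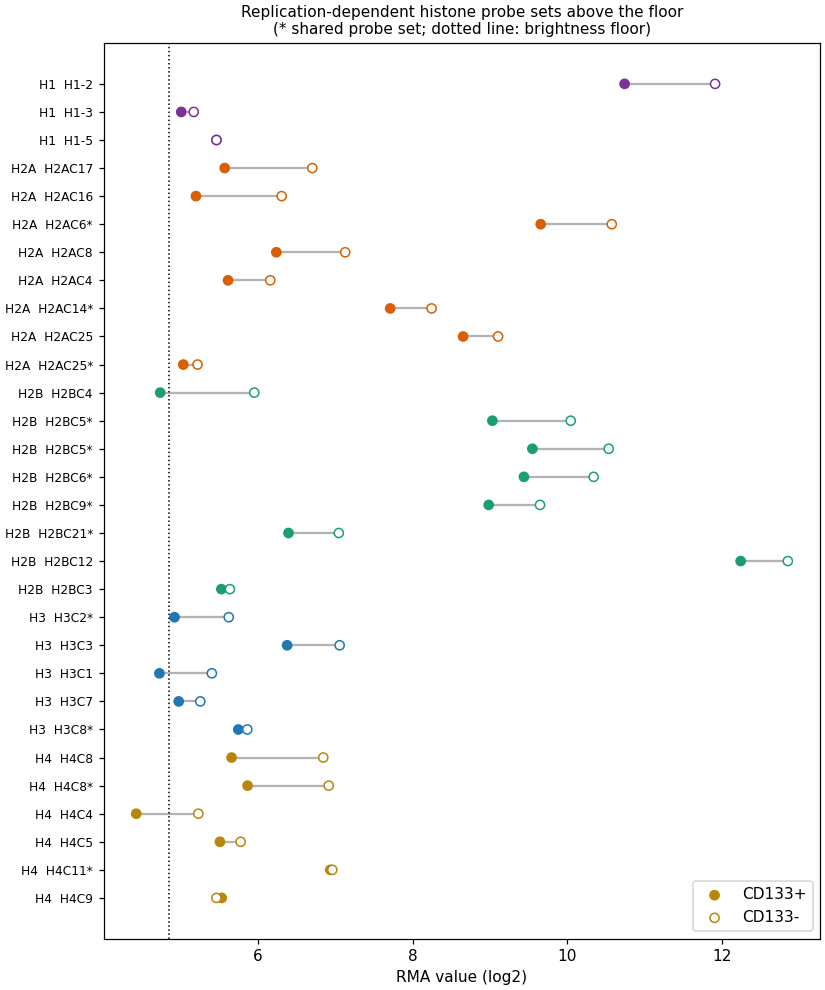
RMA values (log2, x axis) of the 30 replication-dependent histone probe sets above the brightness floor of 4.86 (dotted line), grouped by protein; filled points are the CD133+ array and open points the CD133- array, and an asterisk marks a shared probe set. The CD133+ point lies left of the CD133- point in 28 rows; the points of H1-5 coincide and H4C9 is reversed.

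Among linker histones, a single gene stood out. H1-2, a somatic linker histone (older name HIST1H1C, plain probe set), had an RMA value of 10.74 in CD133+ cells and 11.91 in CD133- cells, 2.25-fold lower. Its MAS5 signals were 6424 and 14603. The other linker histones of the cluster gave dim values. H1-3 had 5.01 in CD133+ and 5.17 in CD133- cells, and H1-5 had 5.47 on both arrays. By MAS5, H1-3 had signals of 227 in CD133+ and 215 in CD133- cells, and H1-5 had 10.9 in CD133+ and 47.5 in CD133- cells, with both H1-5 signals under the MAS5 floor of 91.8, the median brighter signal of the array. H1-1, H1-4 and the testis form H1-6 lay below the floor. The H1 difference thus rests on 1 gene with a plain probe set.

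All 8 H2A probe sets above the floor were lower in CD133+ cells, 4 of them at least 1.5-fold, with a median of -0.72. H2AC17 had RMA values of 5.57 in CD133+ and 6.71 in CD133- cells, 2.19-fold lower, and MAS5 signals of 185 and 464. H2AC16 had 5.20 in CD133+ and 6.31 in CD133- cells, 2.15-fold lower. Both are plain probe sets in the last stretch of the chromosome 6 cluster, and both proteins are canonical H2A. H2AC6, measured by a shared and much brighter probe set, had 9.66 in CD133+ and 10.57 in CD133- cells, a difference of -0.92. H2AC8 had 6.24 in CD133+ and 7.13 in CD133- cells, a difference of -0.89. H2AC4 and H2AC14, also canonical H2A genes, differed by -0.55 and -0.53. The smallest H2A differences belonged to H2AC25 of the HIST3 cluster on chromosome 1, with -0.45 on its plain and -0.18 on its shared probe set.

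H2B had the highest share of probe sets at least 1.5-fold lower. Of 8 probe sets, all were lower in CD133+ cells and 7 at least 1.5-fold, with a median of -0.78. H2BC4, which starts head to head with H2AC6, had an RMA value of 4.74 in CD133+ cells, below the floor, and 5.96 in CD133- cells, so it was at least 2.14-fold lower against the floor. H2BC5 had 9.55 and 9.03 on its shared probe sets in CD133+ cells, against 10.53 and 10.04 in CD133- cells. These H2BC5 values correspond to differences of -0.99 and -1.01. H2BC12, the brightest of the class, had 12.24 in CD133+ and 12.85 in CD133- cells, 1.53-fold lower on a plain probe set. H2BC6 had 9.44 in CD133+ and 10.34 in CD133- cells. H2BC6 (-0.90), H2BC9 (-0.66) and H2BC21 of the HIST2 cluster (-0.65) were lower on shared probe sets, and H2BC3 differed by -0.11. All 5 shared H2B probe sets passed 1.5-fold, against 2 of 3 plain ones, and H2B genes are close in sequence, so single genes are less certain than the class.

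No H3 probe set reached 2-fold. All 5 were lower in CD133+ cells, 3 at least 1.5-fold and 0 at least 2-fold, with a median of -0.68. H3C3, a canonical H3 gene, had 6.38 in CD133+ and 7.06 in CD133- cells, a difference of -0.68. H3C2 and H3C1 differed by -0.70 and -0.68. The CD133+ value of H3C1 lay below the floor, and against the floor it was at least 1.46-fold lower. H3C7 and H3C8 differed by -0.28 and -0.12, and H3C8 had MAS5 signals of only 15.1 and 21.2.

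H4 genes ranged most widely. H4C8 was at least 2-fold lower on both of its probe sets: 5.66 in CD133+ against 6.85 in CD133- cells on the plain one, and 5.87 against 6.92 on the shared one. Its differences of -1.18 and -1.05 lie within the 0.17 spread of each other. H4C4 had 4.43 in CD133+ cells, below the floor, and 5.23 in CD133- cells, at least 1.30-fold lower against the floor. H4C5 differed by -0.27, H4C11 by -0.03 and H4C9 by 0.07. For H4C9 the algorithms went opposite ways, with MAS5 signals of 41.6 and 104 and a log2 MAS5 difference of -1.32. Altogether 3 of 6 H4 probe sets reached 1.5-fold by their RMA values, H4C4 among them.

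**Figure D2:**
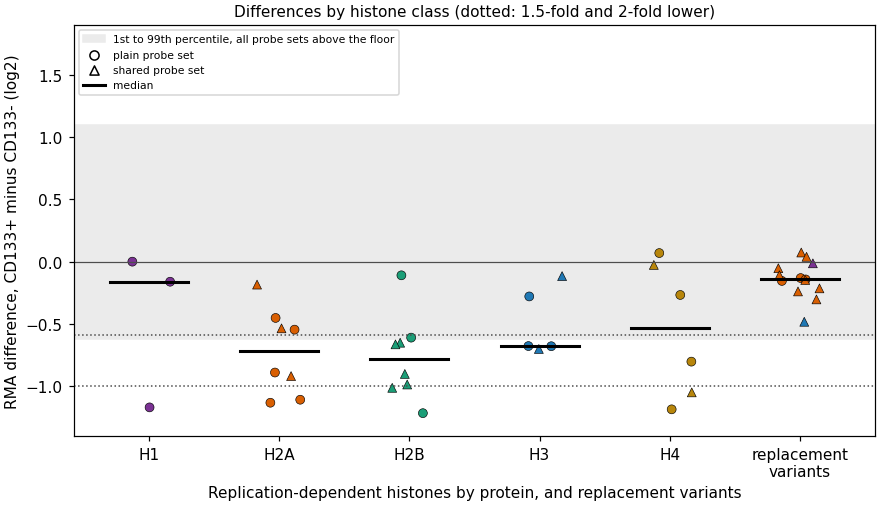
RMA difference, CD133+ minus CD133- (log2, y axis), of each histone probe set above the floor by protein class and for replacement variants; circles are plain and triangles shared probe sets, bars are medians, dotted lines mark 1.5-fold and 2-fold lower, and the shaded band spans the 1st to 99th percentile of all probe sets above the floor (-0.62 to 1.10). Of the replication-dependent points, 17 lie under the band; no replacement variant does.

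Replacement variants had smaller RMA differences than the replication-dependent class. Of 13 probe sets above the floor, 11 were lower and 2 higher in CD133+ cells, and the median difference was -0.14. None was 1.5-fold lower or higher on RMA, against 1.25% and 2.98% of all probe sets above the floor. By MAS5, 1 of the 13 (7.69%) was at least 1.5-fold lower, against 8.29% of all probe sets above the MAS5 floor. Both counts are near the array's share. H2AZ1, the variant found at promoters, had 12.25 in CD133+ and 12.38 in CD133- cells on its plain probe set. H2AZ2, its close relative, ranged from -0.30 to 0.04 over 4 probe sets. The lowest of these, a shared probe set, was the 1 that passed by MAS5, with a log2 MAS5 difference of -0.88. H2AX, which is phosphorylated at DNA breaks and can be made both with and outside replication, ranged from -0.24 to 0.07 over 3 shared probe sets. H2AJ differed by -0.15 and -0.21 on shared probe sets and H1-10, a replacement linker histone, by -0.01. H3-3A had the largest RMA difference of the class.

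H3-3A, which encodes the replacement form of H3, had 7.31 in CD133+ and 7.79 in CD133- cells, a difference of -0.48 on a shared probe set. The 8 probe sets listed for both H3-3A and H3-3B together with another symbol ranged from -0.43 to 0.06, and 7 of them differed by less than 0.1 in size. They cannot separate H3-3A from the other genes they are listed for. The testis and oocyte forms H1-7 and H1-8 lay below the floor. The macroH2A genes, outside the naming pattern because the platform lists them under current symbols, had 6 probe sets above the floor with differences from -0.22 for MACROH2A2 to 0.34 for 1 of the MACROH2A1 probe sets. The replacement median with them added was -0.11.

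Of the 5 members outside both classes, 2 were above the floor and both were lower in CD133+ cells. H2BC12L had 10.99 in CD133+ and 11.96 in CD133- cells, a difference of -0.97 on a shared probe set, so its part from clustered H2B transcripts cannot be told apart. The pseudogene H2AC5P differed by -0.21, with MAS5 signals of 15.2 and 108.

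Probe sets that match several clustered histone genes were not members but measured the same families. Of 15 above the floor, 10 (66.7%) were at least 1.5-fold lower in CD133+ cells by RMA values as given, against 1.25% of all probe sets. The 15 had a median of -0.75. All 5 H2B sets of this kind passed by RMA values as given. The dimmest of them, a plain set listed for H2BC11 and H2BC8, had 4.51 in CD133+ cells, below the floor. Its CD133- value was 5.17, so against the floor it fell short of 1.5-fold. Sets for H2AC18 and H2AC19, the HIST2 pair, passed at -0.93 and -0.85, while the dimmest set of that pair had -0.58. H4 differed again: of 4 sets listed for 14 H4 genes, 1 passed, and the brightest had RMA values of 12.80 in CD133+ and 12.77 in CD133- cells. H2A and H2B sets were lower throughout, and the H4 sets ranged from -0.63 to 0.03.

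**Figure D3:**
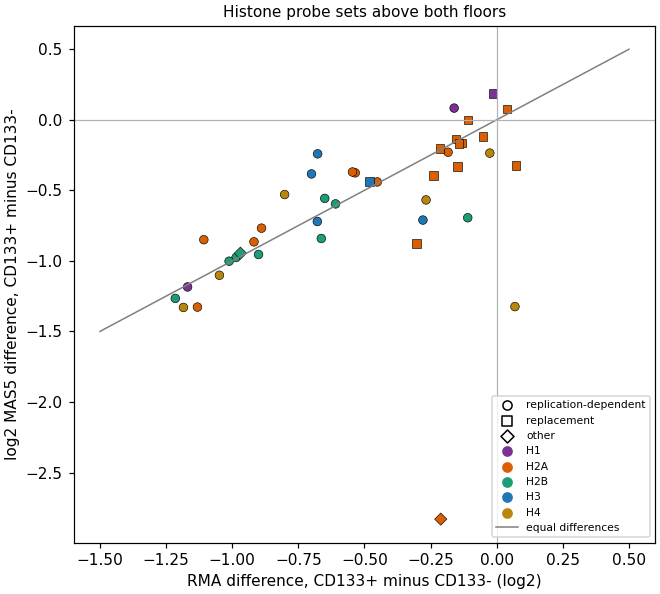
RMA difference (x axis) against log2 MAS5 difference (y axis), both CD133+ minus CD133-, for the 43 histone probe sets above both brightness floors; colour gives the protein, shape the class, and the line marks equal differences. Signs matched for 39 of the 43, and the points farthest from the line are H2AC5P and H4C9.

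MAS5 gave the same direction for the lower genes. All 18 probe sets at least 1.5-fold lower by RMA were also lower by MAS5, 14 of them by at least 1.5-fold. The 4 others were H2BC21, H3C1, H3C2 and H4C4, with log2 MAS5 differences of -0.56, -0.24, -0.38 and -0.53. Counted on MAS5 alone, 18 of the 33 replication-dependent probe sets above the MAS5 floor of 91.8 were at least 1.5-fold lower, against 8.29% of all probe sets above that floor. The algorithms read the same 2 arrays, and their accord is no independent support. Across the 45 members above the RMA floor, Pearson's r between the algorithms' differences was 0.37, as a description over probe sets that share arrays and partly sequence. Dim probe sets spread farthest in that comparison.

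The median difference was larger in size on bright probe sets. Of the 15 replication-dependent probe sets whose brighter value exceeded 6.79, the upper quartile of the array, 12 were at least 1.5-fold lower in CD133+ cells with a median of -0.89. Of the 15 between the floor and that level, 6 were, with a median of -0.28. The 4 bright ones that reached 2-fold belonged to H1-2, H2BC5 and H4C8. Over all probe sets above the floor 1.25% were at least 1.5-fold lower, and that share was not computed within each brightness range.

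**Figure D4:**
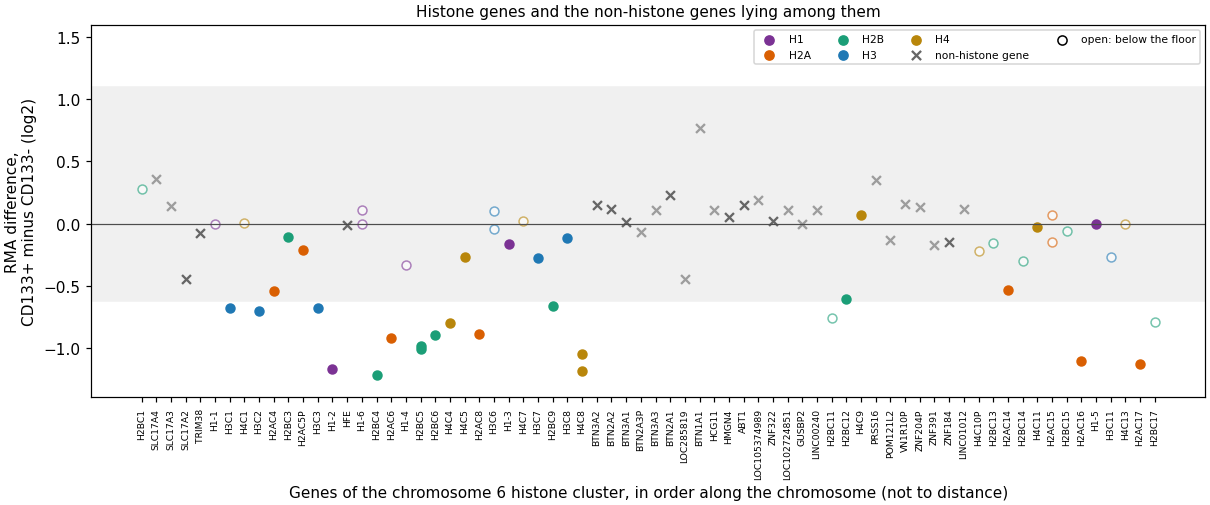
RMA difference, CD133+ minus CD133- (log2, y axis), of every histone probe set of the chromosome 6 cluster (circles, coloured by protein, open below the floor) and of the non-histone genes lying among them (crosses, paler below the floor), in gene order and not to distance; the band spans the 1st to 99th percentile of all probe sets above the floor. Of the replication-dependent probe sets above the floor in the block from H3C1 to H4C8, 14 of 20 were at least 1.5-fold lower by RMA values as given. H3C1, H2BC4 and H4C4 among them had CD133+ values below the floor. The 11 non-histone genes above the floor lie between -0.45 and 0.23.

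The lower values ran along the chromosome 6 cluster. In the order of assembly GRCh38.p14, histone genes separated by gaps of over 100 kb form blocks. In the block from H3C1 to H4C8, 14 of 20 replication-dependent probe sets above the floor were at least 1.5-fold lower by RMA values as given, against 1.25% of all. Those 20 had a median of -0.75, and the pseudogene H2AC5P, which lies there too, is not counted. Among the 14, H3C1, H2BC4 and H4C4 had CD133+ values below the floor. With the floor in place of that value, H3C1 was 1.46-fold and H4C4 1.30-fold lower, short of 1.5-fold. In the block from H2AC14 to H2AC17, 2 of 5 were at least 1.5-fold lower, with a median of -0.53. In the small block between these blocks H2BC12 was and H4C9 was not. Of 28 non-histone genes lying among the histone genes, 11 were above the floor, and 0 were 1.5-fold lower or higher. Over all named genes above the floor 1.01% were lower and 3.67% higher, so 0 of 11 is near the array's share. The 11 had a median of 0.02, from -0.45 for the phosphate transporter family gene SLC17A2 to 0.23 for the butyrophilin gene BTN2A1. Only HFE of them, at -0.01, lay inside the block from H3C1 to H4C8. The others lay outside it, so whether genes between the lower histone genes share the shift rests on HFE alone.

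Of the head-to-head H2A and H2B pairs, 4 had a probe set of their own for both partners. H2BC4 and H2AC6 were both above the floor, with differences of -1.22 and -0.92. H2AC17 differed by -1.13 and its partner H2BC17, below the floor, by -0.79. H2AC14 differed by -0.53 and H2BC14, below the floor, by -0.30. The partners H2AC15 and H2BC15 were both below the floor and differed by less than 0.15 in size.

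Listed genes that make, process and deposit histones had smaller median differences than the replication-dependent histones. Of 14 listed genes of histone gene transcription, 13 had a probe set above the floor and 0 were 1.5-fold lower or higher, against 1.01% lower and 3.67% higher over all 12899 named genes above the floor. NPAT, the cyclin E-CDK2 target that activates histone gene transcription, had 6.58 in CD133+ and 6.80 in CD133- cells on its brighter probe set, and its other probe set above the floor differed by 0.14. CASP8AP2, a histone locus body protein, differed by -0.19, and the list ranged from NFYB at -0.22 to CDK2 at 0.19 with a median of -0.06. Of the 24 listed genes of histone mRNA end formation and decay, 23 were above the floor and 0 passed in either direction, with a median of -0.09. For both lists the count of 0 is near the array's share. SLBP, which binds the stem-loop of histone mRNA, had 10.34 in CD133+ and 10.36 in CD133- cells. LSM11, a subunit of the U7 particle that cleaves histone precursors, differed by 0.01, and the list ranged from TUT4 at -0.32 to LSM10 at 0.17.

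Chaperones showed small differences as well. The 16 genes above the floor, of 17 listed for replication-coupled histone supply, had a median of -0.12, from the importin IPO4 at -0.35 to the chromatin assembly subunit RBBP4 at 0.30, and 0 passed 1.5-fold. NASP, which holds soluble H3 and H4, differed by -0.17 and the assembly factor subunit CHAF1A by -0.22. The 18 genes above the floor, of 19 listed for replacement variant loading, had a median of -0.02, from UBN2 at -0.34 to UBN1 at 0.37, both partners of the H3-3A chaperone HIRA, and 0 passed. Among all named genes above the floor 1.01% were lower and 3.67% higher, so both counts are near the array's share.

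**Figure D5:**
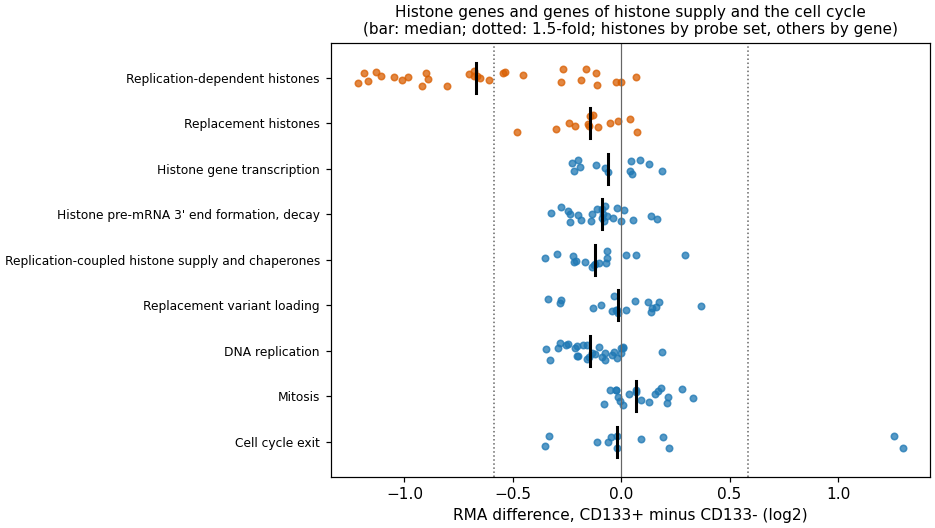
RMA difference, CD133+ minus CD133- (log2, x axis), of replication-dependent and replacement histone probe sets above the floor (orange) and of genes of histone supply and the cell cycle (blue, 1 probe set per gene); bars are medians and dotted lines mark 1.5-fold. The replication-dependent histones have a median of -0.67, and every other median lies between -0.14 and 0.07.

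Genes of S phase and mitosis gave the setting of the cell cycle. Of 29 listed DNA replication genes, 28 were above the floor and 23 had lower values in CD133+ cells, against 6596 of all 12899 named genes. At least 1.5-fold lower were 0 of the 28, against 1.01% of all named genes. Their median was -0.14, from the uracil glycosylase UNG at -0.34 to the thymidine kinase TK1 at 0.19. The 19 mitosis genes had a median of 0.07, from CCNA2 at -0.08 to UBE2C at 0.33. Of 15 listed genes of cell cycle exit, a list that also holds the D-type cyclins CCND1, CCND2 and CCND3, 12 were above the floor. Their median was -0.02, with 7 lower and 5 higher, from CCND1 at -0.35 to CDKN1A at 1.30. At least 1.5-fold higher were 2 of the 12, against 3.67% of all named genes. CDKN1A, a CDK inhibitor induced by p53, had 8.69 in CD133+ and 7.39 in CD133- cells. CDKN2B, an inhibitor of CDK4 and CDK6, had 6.59 in CD133+ and 5.33 in CD133- cells. The second CDKN2B probe set, below the floor, differed by 0.11. Their part in the histone values was not tested.

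The sort and the tissue were checked on known genes. PROM1, the gene of CD133, had 10.49 in CD133+ and 5.33 in CD133- cells, and 8 of the 10 hepatocyte and hepatoma markers had a probe set of their own, all above the floor, with summed MAS5 signals of 314410 and 311746. Blood markers summed to 13200 in CD133+ and 13971 in CD133- cells, nearly all of it LYZ. PTPRC and ITGAM, included in these sums, were below the floor. All 10 endothelial and stromal markers had summed signals of 3108 in CD133+ and 1742 in CD133- cells, and 6 of them were above the floor. At least 1.5-fold higher were 2 of the 6, LUM and COL1A2, against 3.67% of all named genes above the floor. COL1A2, a collagen gene, had 8.48 in CD133+ and 7.15 in CD133- cells. LUM, an extracellular matrix gene, had 6.08 in CD133+ and 2.17 in CD133- cells, so with the floor in place of the lower value it was at least 2.33-fold higher. A second LUM probe set, dim on both arrays, differed by 0.11. DCN, COL3A1, ACTA2 and CDH5 were below the floor. The part of these genes in the histone values was not tested.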

How the data were processed

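Total RNA was extracted with Trizol and amplified with biotin, per the labels' protocols. The authors deposited 1 table of 4 value columns. Of these, 2 are MAS5 signal intensity, linear by the range of the deposited values, and the submitters' processing notes name MAS5 and GCOS. The other 2 are RMA, deposited as log2 values. The sources used here do not name the RMA software, its version or the set of arrays it normalized. RMA as usually run gives all arrays 1 distribution, so a global shift could not be seen. The columns were taken as 1 array per population, since the labels differ only in the algorithm. With 1 array each, precision is limited by array number.

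Symbols were updated by Entrez number to GRCh38.p14, which matched all 74 member probe sets. Differences, counts and medians were computed in Python 3.11.15 with pandas 2.3.3, and the counting was tested on simulated data. Other lists used the probe set of highest mean RMA value per gene. Every histone member above the floor could be named; of other lists, genes at 1.5-fold, the extremes, and SLBP, NPAT, CASP8AP2 and LSM11, with a few added for their role after values were seen. The members and lists were chosen with earlier results of these data known. No p-value is given. Promoters are from RefSeq. Protein sequences were not used here.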

Additional observations from a re-analysis of the deposited data

How the results depend on the processing

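The number of replication-dependent probe sets at least 1.5-fold lower in CD133+ cells was 18 of 30. It was 10 of 18 on plain and 8 of 12 on shared probe sets alone, and 28 of 45 with probe sets of several histone symbols added; under the other alternatives it lay between 12 and 20. The number at least 2-fold lower was 7, against 4 of 15 with the upper quartile as the floor, 2 of 12 on shared probe sets alone, and 5 to 8 otherwise. These counts change partly because fewer or more probe sets are counted. The median of -0.67 became -0.33 with no brightness floor and -0.89 with the upper quartile as the floor, and lay between -0.69 and -0.64 under the other alternatives. The replacement median of -0.14 lay between -0.17 and -0.11 under every alternative run. The alternatives that added H2BC12L, H2AC5P or the macroH2A genes were chosen after seeing the data. By MAS5, 20 of the 45 single differences moved by more than the spread of 0.17, and none of the 18 at 1.5-fold changed direction. No paired analysis was possible because each population has 1 array. Dim probe sets limit what can be seen for H1, H3 and H4 genes.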
